A study of Mus musculus with 12 samples.

Results

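The FOS and JUN family of the mouse holds 7 genes, Fos, Fosb, Fosl1 and Fosl2 on the FOS side and Jun, Junb and Jund on the JUN side, and their transcripts were followed in whole eyes through 1 circadian day in darkness. The members were the rows of the deposited count table that carry these 7 names, out of 32544 entries. That rule uses names and no measured value, but the family was chosen with earlier results of these data known. All 7 were present, and all 7 were among the 15134 genes that passed the filter on low counts. Fos alone passed the main test between times after adjustment over all genes tested, with its highest level at CT14 in both genotypes.

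FOS and JUN proteins carry a basic leucine zipper and bind DNA as pairs, known together as AP-1. Within the family a FOS protein needs a JUN partner, whereas JUN proteins can also pair with each other. Fos, Fosb, Jun and Junb are classed as immediate early genes, which are transcribed within minutes of a neuronal, growth factor or stress signal and soon fall silent again, while Jund is transcribed more evenly in most cells. In the retina Fos is known as a gene that follows light and time of day, and the glucocorticoid receptor is known to bind AP-1 proteins and to restrain them at some genes.

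The cKO mice were Cre-positive males of 12 weeks with a retina-specific deletion of Nr3c1, the gene of the glucocorticoid receptor. The WT mice were Cre-negative males of the same age. The labels name neither the Cre driver nor the deleted exon, so loss of the receptor and presence of Cre cannot be told apart. Mice of both genotypes lived under 12 h of light and 12 h of darkness for 2 weeks and then went into constant darkness. On day 2 of darkness whole eyes were sampled at 6 circadian times, CT2 to CT22 in steps of 4 h, where CT gives the hours since the start of the subjective day. Every library combined equal amounts of RNA of 3 mice, which gave 6 cKO libraries and 6 WT libraries, 1 of each at every time, from 18 mice per genotype. There was no replicate within a genotype and time, and the spread between the mice of a pool cannot be seen. With time as a factor, the spread behind each test came from how far the cKO and WT libraries of a time departed from a common course. In the 24 h cosine fits it came from how far libraries departed from the fitted curves, so a course unlike a cosine adds to it. Some labels call the tissue ciliary body and the cells a nonpigmented epithelial line, but the protocols describe whole eyes. Summed rod markers stood at 39000 to 50800 CPM (counts scaled to the TMM-adjusted size of the library) with lens markers at 34960 to 60700 CPM and corneal markers at 6035 to 9686 CPM. In such bulk RNA, fewer cells of a type and less RNA per cell cannot be told apart.

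Libraries held 10482736 to 10703737 counts. Nr3c1, the targeted gene, had 38.8, 49.3, 42.9, 49.3, 45.0 and 49.6 CPM in cKO eyes at CT2 to CT22, against 71.8, 65.9, 55.4, 76.1, 65.3 and 60.6 CPM in WT eyes (log2 difference -0.52 ± 0.06 SE, edgeR adjusted p = 0.0018, lower in cKO at 6 of 6 times). A pair of WT libraries, those of CT18 and CT22, stood apart from the other WT libraries. The pseudogene Rps13-ps1 had 136 counts in the cKO library of CT2 and 0 in the other 5 cKO libraries. It had 954 to 1142 counts in the WT libraries of CT2, CT6, CT10 and CT14, 0 in that of CT18 and 55 in that of CT22. Summed red blood cell markers were 506.5 and 300.5 CPM in the pair. They were 172.9 to 218.9 CPM in the other WT libraries and 116.3 to 242.1 CPM in cKO. Summed immune cell markers were 207.8 and 234.7 CPM in the pair, against 120.5 to 146.9 CPM in the other WT libraries and 144.5 to 214.9 CPM in cKO. Nr3c1 in those 2 WT libraries lay above every cKO library. Fos and Junb results and calls of the gene lists that change without them are given with and without them. At CT14 both libraries lay above all others in the summed markers of bipolar cells (1035 CPM in cKO and 1064 CPM in WT, against 958 to 1028 CPM at other times), of amacrine and horizontal cells (528 and 537 CPM, against 493 to 527 CPM) and of Müller glia (5770 and 6041 CPM, against 5199 to 5743 CPM). Rod markers went the other way in cKO: their sum was 39000 CPM in cKO and 43990 CPM in WT at CT14, against 50800 and 44170 CPM at CT10. Of 8 rod genes 2 were called lower at CT14 than at CT10, the receptor Nr2e3 (-0.66 log2, edgeR adjusted p = 0.0011) and the arrestin Sag (-0.59, adjusted p = 0.012). The part of any of these markers in the CT14 results below was not tested.

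The genes lie on 6 chromosomes of the GRCm38 build, with positions counted from 1 (GENCODE M21). Fos occupies chr12:85473890-85477273 on the plus strand in 4 exons, Fosb chr7:19302696-19310051 on the minus strand, Fosl1 chr19:5447547-5455946 on the plus strand and Fosl2 chr5:32135801-32157842 on the plus strand. The JUN genes are compact: Jun at chr4:95049034-95052222 (minus strand) and Jund at chr8:70698949-70700616 (plus strand) each consist of 1 exon, and Junb lies at chr8:84974484-84978718 (minus strand). Exons of 4 members overlap a gene on the other strand, namely Ccdc85b for Fosl1 (278 to 367 counts), Prdx2 for Junb (2021 to 2407 counts), and the antisense genes Junos for Jun and Gm11175 for Jund, which are not rows of the table. The sources used here do not say whether counting used strand, so reads of these partners could have entered the counts of Fosl1, Junb, Jun and Jund.

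RefSeq promoters (GRCm38.p6, 250 bases before to 50 after the start) were at hand for 6 members, all but Fosl1. They are shown because immediate early genes such as Fos are known to be switched on through cAMP response elements, TGACGTCA, or their half-site TGACG, which the full element contains. Both strands were searched. The half-site stood in the promoters of Fos (first base 129 and 66 bases before the start), Fosb (60 bases before it) and Junb (106 bases before it), and in none of those of Jun, Jund and Fosl2. Among all 32851 promoters of the table, 20.8% held TGACG. None of the 6 held TGACGTCA (1.79% of all promoters), the AP-1 site TGANTCA (7.81%), the E-box CACGTG (7.15%) or a CArG box (1.63%). Only exact matches within this window were searched, so variants of these sites and sites farther from the start would not be seen. The window of Jund does not reach the GENCODE start of that gene. The 250 bases before the start are printed 5′ to 3′ on the strand of the gene, with TGACG in capitals, for the 3 genes that hold it and for Jun as 1 that does not. The windows are chr12:85473640-85473889 for Fos (plus strand), chr7:19310046-19310295 for Fosb, chr8:84978749-84978998 for Junb and chr4:95052223-95052472 for Jun (all minus strand).
Fos: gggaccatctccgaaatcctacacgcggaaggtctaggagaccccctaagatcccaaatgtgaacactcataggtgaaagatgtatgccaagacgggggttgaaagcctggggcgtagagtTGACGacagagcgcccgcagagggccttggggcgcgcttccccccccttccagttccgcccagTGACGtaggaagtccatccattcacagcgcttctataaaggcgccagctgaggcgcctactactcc
Fosb: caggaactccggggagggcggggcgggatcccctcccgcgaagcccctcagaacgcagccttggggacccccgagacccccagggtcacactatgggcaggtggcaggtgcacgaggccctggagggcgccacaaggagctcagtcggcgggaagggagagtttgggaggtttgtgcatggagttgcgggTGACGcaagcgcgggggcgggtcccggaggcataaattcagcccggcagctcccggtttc
Junb: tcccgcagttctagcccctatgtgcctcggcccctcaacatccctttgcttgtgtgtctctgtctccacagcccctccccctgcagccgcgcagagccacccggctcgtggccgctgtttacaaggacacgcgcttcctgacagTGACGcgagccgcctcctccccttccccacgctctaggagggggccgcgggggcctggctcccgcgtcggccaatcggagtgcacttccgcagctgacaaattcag
Jun: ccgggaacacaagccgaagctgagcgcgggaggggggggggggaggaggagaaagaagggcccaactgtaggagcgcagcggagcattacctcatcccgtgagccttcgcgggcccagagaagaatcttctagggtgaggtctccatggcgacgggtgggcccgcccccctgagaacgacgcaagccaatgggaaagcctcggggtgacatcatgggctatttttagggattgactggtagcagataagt

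The first question was which members changed with circadian time. Fos, the founding FOS gene and the partner with which JUN proteins form the classical AP-1 pair, had 10.0, 8.77, 7.36, 40.2, 20.4 and 12.3 CPM in cKO eyes at CT2, CT6, CT10, CT14, CT18 and CT22. In WT eyes it had 12.7, 10.9, 11.6, 45.7, 27.9 and 13.7 CPM at the same times. Both genotypes were low through the subjective day, highest at CT14 and intermediate at CT18, and neither the CT14 nor the CT18 pair overlapped the libraries of any other time. CT14 stood 4.19-fold over the mean of CT2, CT6, CT10 and CT22 in cKO and 3.73-fold over it in WT, and CT18 stood 2.12-fold and 2.28-fold over that mean. Raw counts were 77 to 475 per library.

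In the model with genotype and time as factors, Fos was the only 1 of the 7 members to pass the test between times (edgeR quasi-likelihood test, Benjamini-Hochberg adjusted p = 6.2e-08, threshold 0.05). Among all tested genes 292, or 1.93%, passed, and Fos ranked 3 by p. The SD of its log2 CPM over the 12 libraries lay at percentile 99.6 of all tested genes. Fosb (adjusted p = 0.262) and Junb (adjusted p = 0.124) had an unadjusted p below 0.05 and did not pass, and the adjusted p of Fosl1, Fosl2, Jun and Jund lay between 0.513 and 0.816. Counts of all genes below 0.05 before adjustment came to 2058. limma and DESeq2 also called 1 member each. Without the 2 WT libraries of CT18 and CT22 Fos passed with an adjusted p of 3.1e-07.

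**Figure D1:**
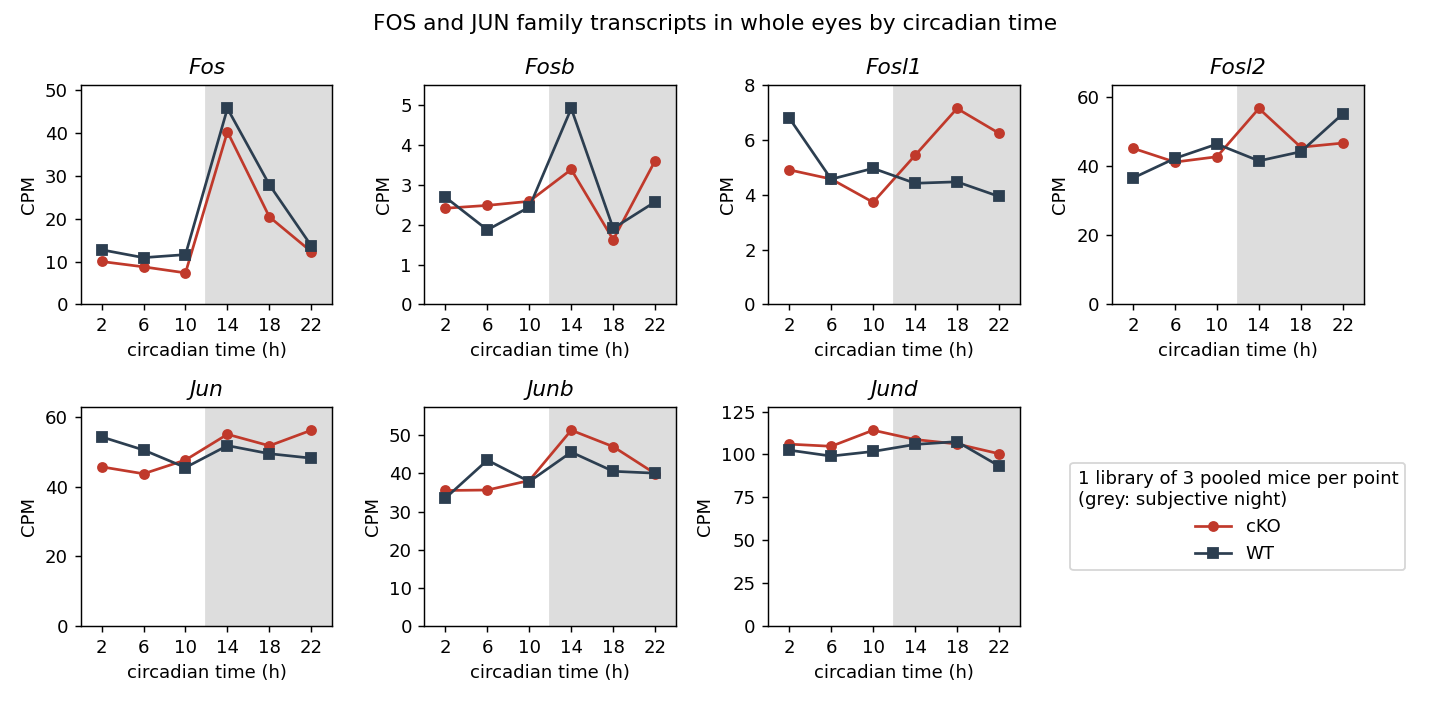
Level of each FOS and JUN family transcript (CPM, axes from 0) by circadian time (h), with 1 library of 3 pooled mice per point, cKO as red circles and WT as dark squares, and the subjective night in grey. Fos is highest at CT14 in both genotypes, at 40.2 CPM in cKO and 45.7 CPM in WT, while Jund stays between 93.3 and 114 CPM.

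Each time was then set against the one before it, again with both genotypes in 1 model. At CT14 over CT10, 1 of 7 members passed, and 0.581% of all genes did (0.363% higher at CT14, 0.218% lower). Fos rose by 2.19 ± 0.13 on the log2 scale (SE, adjusted p = 6.2e-08), a fold of 5.47 between the cKO libraries and 3.93 between the WT libraries, and ranked 5 by fold among all tested genes. Junb had a log2 difference of 0.35 ± 0.10 (adjusted p = 0.175), Fosb of 0.72 ± 0.29 (adjusted p = 0.381) and Jun of 0.20 ± 0.10 (adjusted p = 0.527), none past the test. Jund stood at -0.01 ± 0.07, the smallest step of the 7.

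Fos came down in both of the following steps. At CT18 over CT14, where 0.0198% of all genes passed, it fell by 0.84 ± 0.11 on the log2 scale (SE, edgeR adjusted p = 0.006) as the only member called. Limma-trend put that step at an adjusted p of 0.0501, and without the 2 WT libraries of CT18 and CT22 the step was -0.90 with an adjusted p of 0.0429. At CT22 over CT18, where 0.0925% of genes passed, it fell by 0.89 ± 0.13 (SE, adjusted p = 0.0091), again as the only member called. That call was lost without the WT library of CT18 (-0.80, adjusted p = 0.101), without that of CT22 (-0.77, adjusted p = 0.229) and without both (-0.73, adjusted p = 0.445). No member passed at CT6 over CT2 (0% of genes), at CT10 over CT6 (0.00661%) or at CT2 over CT22 (0.443%) in edgeR, limma or DESeq2. At an unadjusted p below 0.05 the first and second of these steps had 0 members and the third had 1, Fosl2, with -0.32 ± 0.13. The shares of all genes below 0.05 were 6.25%, 5.16% and 10.3%.

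**Figure D2:**
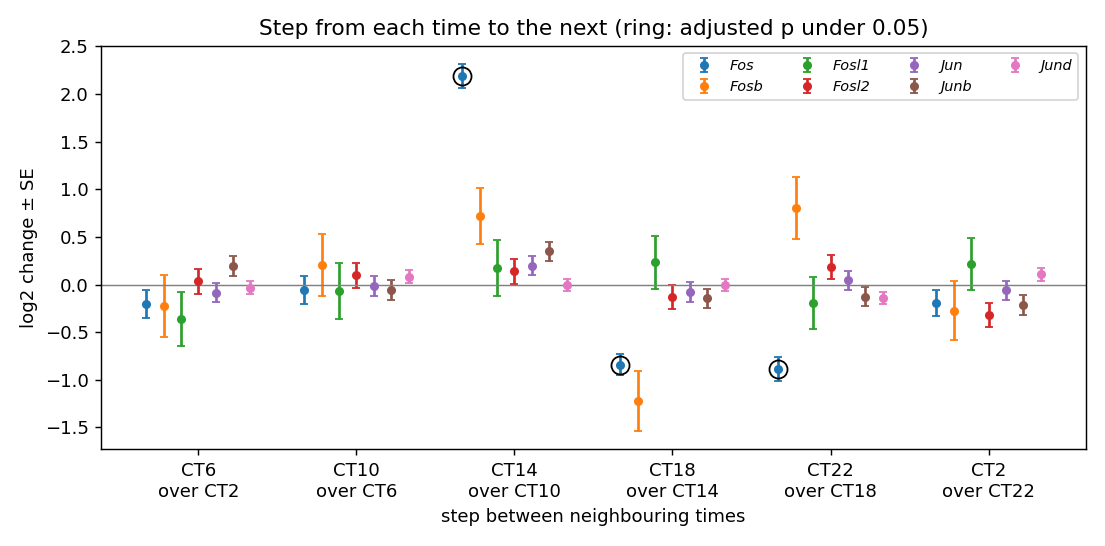
Log2 change of each gene from a time to the next (points, with SE bars, edgeR model over both genotypes), for the 6 steps of the day. Rings mark an adjusted p under 0.05, which only Fos reached, at 2.19 for CT14 over CT10, -0.84 for CT18 over CT14 and -0.89 for CT22 over CT18.

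A 24 h cosine common to both genotypes was called for Fos alone among the members, against 3.46% of all genes. Its amplitude was 1.04 ± 0.16 from mean to peak on the log2 scale (SE, edgeR adjusted p = 0.0027) and its fitted peak fell at CT15.7. Junb had its fitted peak at CT15.3 with an amplitude of 0.19 ± 0.05 (adjusted p = 0.074), short of the threshold. Without the 2 WT libraries of CT18 and CT22 the amplitude of Fos was 1.13 (adjusted p = 0.0041) and that of Junb 0.21 (adjusted p = 0.0869). The other 5 had adjusted p-values of 0.427 to 0.753.

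Fosb, which encodes a FOS protein known for lasting after repeated stimulation of neurons, was the scarcest member. It had 2.41, 2.48, 2.58, 3.38, 1.62 and 3.60 CPM in cKO eyes and 2.68, 1.87, 2.44, 4.90, 1.90 and 2.57 CPM in WT eyes, on only 17 to 51 counts per library. WT was highest at CT14 and cKO at CT22, and the genotypes overlapped. Its CV over the 12 libraries was 33.2%, beside 18.7% from counting alone. The step of CT18 over CT14 was -1.22 ± 0.31 (log2, SE, adjusted p = 0.427), lower at CT18 in both genotypes.

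Fosl1, which encodes FRA1, a FOS protein without the activating end of FOS and known from migrating cells, had 4.91, 4.58, 3.73, 5.44, 7.15 and 6.25 CPM in cKO eyes. In WT eyes it had 6.80, 4.57, 4.97, 4.42, 4.47 and 3.94 CPM. Counts were 39 to 75 per library. The cKO libraries were highest at CT18 and the WT libraries at CT2, so the order of the times differed between genotypes. The test of that difference, between 24 h cosines, gave an amplitude of 0.55 ± 0.20 (log2, SE). It was below 0.05 before adjustment and did not pass after it (edgeR adjusted p = 1.00).

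Fosl2, which encodes FRA2, had 45.1, 41.1, 42.6, 56.6, 45.4 and 46.6 CPM in cKO eyes and 36.5, 42.2, 46.3, 41.4, 44.1 and 55.0 CPM in WT eyes. The highest library was that of CT14 in cKO and that of CT22 in WT. At CT14 the 2 genotypes were farthest apart, 56.6 CPM in cKO and 41.4 CPM in WT. In the same cKO library the summed corneal and conjunctival markers were the highest of the 6 cKO libraries (9218 CPM) and so were those of stroma and sclera (1074 CPM), while the WT library of CT14 had the lowest corneal sum of the 6 WT libraries (6035 CPM). Their part in the Fosl2 values was not tested.

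Jun, the founding JUN gene, encodes a strong activator that pairs with any FOS protein. Its levels were 45.6, 43.7, 47.6, 55.0, 51.7 and 56.1 CPM in cKO eyes and 54.2, 50.5, 45.4, 51.7, 49.4 and 48.1 CPM in WT eyes. Every library thus lay within 1.29-fold of the lowest. The cKO values were the lower ones at CT2 and CT6 and the higher ones at the other 4 times.

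Junb, which encodes a weaker activator that can hold JUN back, had 35.5, 35.7, 38.1, 51.3, 47.0 and 39.95 CPM in cKO eyes and 33.5, 43.5, 37.9, 45.6, 40.6 and 40.1 CPM in WT eyes. CT14 was the highest time and CT2 the lowest in both genotypes, and the 2 CT14 libraries did not both lie above all others, since the cKO library of CT18 exceeded the WT library of CT14. The call for time depended on the CT6 pair: without both libraries of CT6 Junb passed (adjusted p = 0.0404), as it did without the WT library (0.0439) or the cKO library (0.0496) of that time, and without the filter on low counts (0.0459).

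Jund, the JUN gene known for steady expression in resting cells, had 106, 105, 114, 109, 106 and 100.4 CPM in cKO eyes and 103, 99.1, 102, 106, 107 and 93.3 CPM in WT eyes. Its CV was 5.07%, beside 3.02% from counting alone, and the SD of its log2 CPM lay at percentile 14.1 of all tested genes. Within the family the CV ran from this value through 8.0% for Jun, 12.5% for Fosl2, 12.9% for Junb, 21.5% for Fosl1 and 33.2% for Fosb to 69.1% for Fos.

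Levels of different genes were compared per length, as CPM per kilobase (kb) of annotated exon, over all 12 libraries. Jund led with a mean of 62.5 CPM per kb (range 55.9 to 68.4) and overlapped no other member. Junb (17.7, range 14.6 to 22.3) and Jun (15.7, range 13.7 to 17.6) followed with overlapping ranges. Fos averaged 7.85 CPM per kb, and its range of 3.13 to 19.4 reached into those of Junb and Jun above it and of Fosl2 and Fosl1 below it. Fosl2 (4.67, range 3.77 to 5.84), Fosl1 (2.51, range 1.83 to 3.52) and Fosb (0.433, range 0.26 to 0.785) did not overlap each other. The JUN genes therefore held most of the summed level at every time. Fos made up 13.1% of the family sum in cKO and 15.4% in WT at CT14, and 7.39% and 10.2% at CT18, against 2.85% to 4.81% in cKO and 4.39% to 5.68% in WT at the other 4 times. The family sum itself was 131 CPM per kb in cKO and 126 in WT at CT14, and between 102 and 117 in the other 10 libraries.

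**Figure D3:**
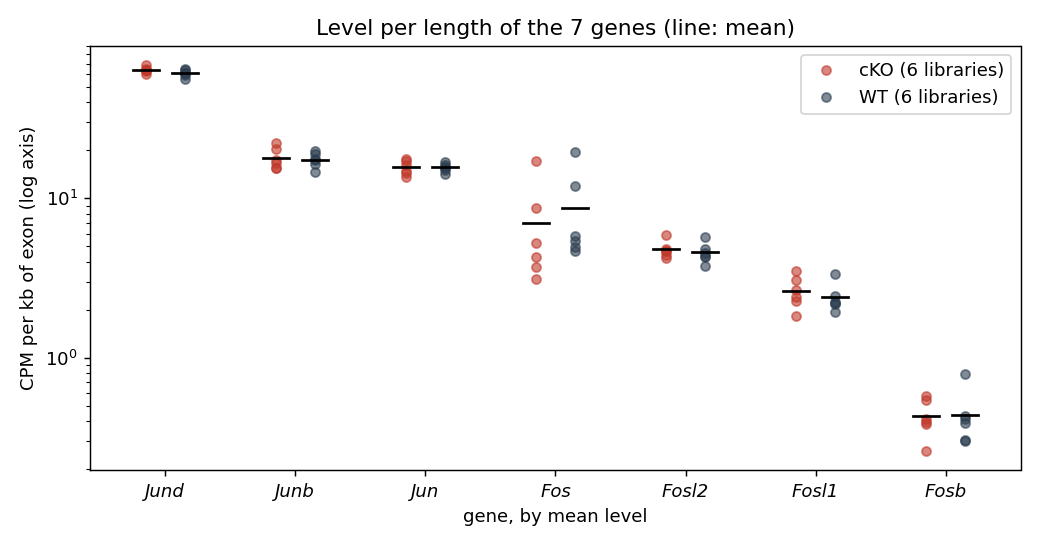
Level per length of the 7 genes (CPM per kb of exon, log axis) in the 6 cKO libraries (red, left) and 6 WT libraries (dark, right), with a line at each mean and genes in order of mean level. Jund is highest at 62.5 CPM per kb on average, Fosb lowest at 0.433, and Fos spans 3.13 to 19.4.

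The second question was whether the family differed between cKO and WT eyes. With time as a factor, 0 of 7 members passed the genotype test in edgeR, as in limma and DESeq2. An unadjusted p below 0.05 was seen for 1 member, beside 5.89% of all genes. Among all genes 0.139% passed (0.0661% higher in cKO, 0.0727% lower). That 1 member was Fos, which averaged 16.5 ± 12.5 CPM in cKO eyes and 20.4 ± 13.9 CPM in WT eyes (SD over the 6 times, n = 6 each). It was lower in cKO at 6 of 6 times, with a log2 difference of -0.33 ± 0.08 in the edgeR model (SE, adjusted p = 0.192). The per-time log2 differences were -0.34, -0.31, -0.65, -0.18, -0.45 and -0.15 at CT2 to CT22, smallest at CT14 and CT22 and largest at CT10. Without the 2 WT libraries of CT18 and CT22 it was -0.33 with an adjusted p of 0.395. Across the alternative analyses the estimate stayed between -0.38 and -0.28 with adjusted p-values of 0.0653 to 0.999. The summed markers of each cell type were lower in cKO at 1 to 4 of the 6 times. The number was 1 for cones, lens and vessels and 4 for types such as bipolar cells and Müller glia. Their part in the Fos difference was not tested.

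The other 6 members had genotype differences within 2 SE of 0. Fosb averaged 2.68 ± 0.72 CPM in cKO and 2.73 ± 1.1 CPM in WT (log2 difference -0.01 ± 0.18 SE), and Fosl1 5.34 ± 1.22 and 4.86 ± 1.00 CPM (0.13 ± 0.16). Fosl2 averaged 46.2 ± 5.4 CPM in cKO and 44.2 ± 6.2 CPM in WT (0.06 ± 0.07). For Jun the means were 49.9 ± 5.1 and 49.9 ± 3.0 CPM (0.00 ± 0.06), and for Junb 41.3 ± 6.5 and 40.2 ± 4.2 CPM (0.03 ± 0.06). Jund averaged 107 ± 4.5 CPM in cKO and 102 ± 5.1 CPM in WT (0.07 ± 0.04, adjusted p = 0.884) and was higher in cKO at 5 of 6 times.

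**Figure D4:**
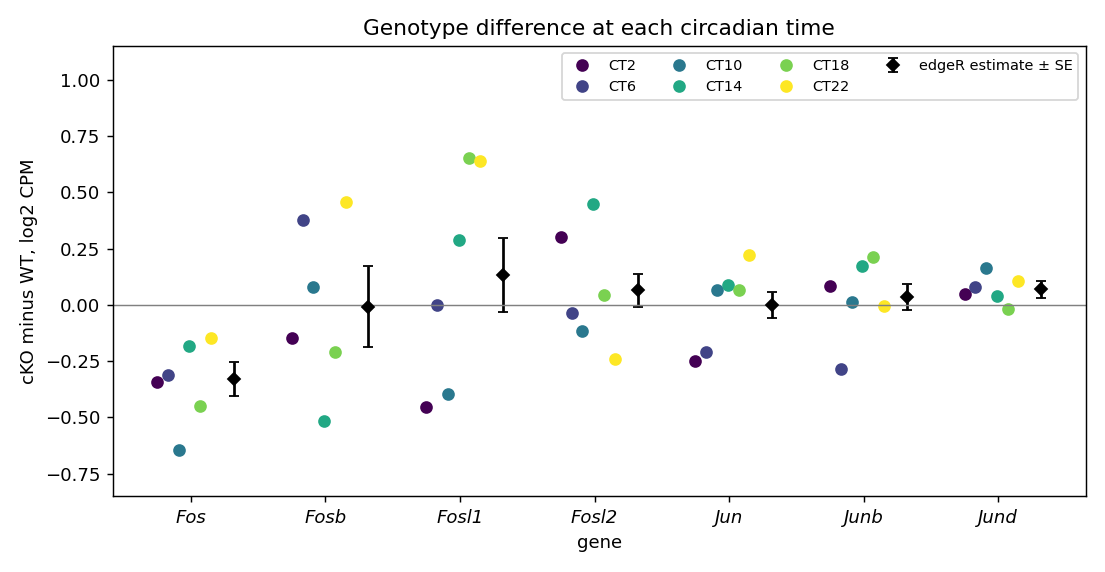
Difference of log2 CPM, cKO minus WT, for each gene at each circadian time (coloured points) with the edgeR estimate and its SE over the 6 times (black diamonds). All 6 points of Fos lie below 0, between -0.65 and -0.15, while the points of every other gene fall on both sides of 0.

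Whether the genotype difference at 1 time departed from that at the other 5 was tested time by time. No member passed at any of the 6 times in edgeR, limma or DESeq2, although DESeq2 gave no adjusted p for 6 of the members at CT14. The share of all genes that passed was 0.0132% at CT2, 0% at CT6 and 0.00661% at CT10. For CT14 it was 0.0925%, for CT18 0.258% and for CT22 0.00661%. At an unadjusted p below 0.05 there was 1 member at CT6, Junb (-0.38 ± 0.13 log2, SE, adjusted p = 0.937), and 1 at CT14, Fosl2 (0.46 ± 0.16, adjusted p = 0.400), and 0 at the other times. The share of all genes below 0.05 was 4.84% at CT6 and 7.51% at CT14, and 2.64% to 6.1% at the other times. For Fos the departure at CT14 was 0.20 ± 0.17 (adjusted p = 0.862), so a difference in its CT14 rise was not detectable with these libraries.

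Fitted within genotypes, a 24 h cosine was called for 0 members in cKO and 0 in WT by edgeR, limma and DESeq2, the last without an adjusted p for 3 of them in cKO. The shares of all genes called were 0.152% in cKO and 0.363% in WT. Fos had an amplitude of 1.06 ± 0.25 in cKO (log2, SE, adjusted p = 0.212) with a peak at CT15.8, and of 1.01 ± 0.24 in WT (adjusted p = 0.133) with a peak at CT15.7. Unadjusted p-values below 0.05 were seen for 4 members in cKO (Fos, Junb, Jun and Fosl1) and for Fos in WT, which is 57.1% and 14.3% of the members, beside 8.41% and 11.7% of all genes. The test of the difference between the 2 cosines called 0 members and 0.0132% of all genes. For Fos the difference was 0.06 ± 0.36 (log2, SE, edgeR adjusted p = 1.00), an SE larger than that of either amplitude. Without the 2 WT libraries of CT18 and CT22 the Fos rhythm in WT passed (amplitude 1.55, adjusted p = 0.0417), resting then on 4 WT libraries. It also passed without the cKO library of CT14 (1.01, adjusted p = 0.0407) and without both libraries of CT10 (1.04, adjusted p = 0.0305).

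Genes whose log2 CPM ran most like that of Fos over the 12 libraries were named by Pearson's r, as a description, since libraries of a time share that time. They were Egr1 (r = 0.982), Nr4a1 (0.957), Ubtf (0.947), Rhobtb1 (0.943) and Zscan26 (0.928). Egr1, a zinc finger factor of the immediate early class, had 102 CPM in cKO and 157 CPM in WT at CT14, against 7.65 and 9.0 CPM at CT10. Nr4a1, an orphan nuclear receptor of the same class, had 65.8 and 78.0 CPM at CT14, against 12.2 and 12.9 CPM at CT10. Fosb ran most like Tcp11l1 (0.866), Limd2 (0.865), Nufip1 (0.860), Patz1 (0.848) and Slc1a4 (0.842), and none of those 5 passed the test between times. Nor did any of the 5 nearest to Junb, which were Hsp90ab1 (0.926), Sp7 (0.900), Vgll4 (0.881), Extl1 (0.874) and Nuak2 (0.873). Within the family r was highest between Fos and Junb (0.736) and was 0.512 between Fos and Jun and 0.382 between Fos and Fosb.

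The pathway around the family was examined as gene lists, which were drawn up with earlier results of these data known. Of 21 other immediate early genes tested, 8 passed the test between times, beside 1.93% of all genes. At CT14 over CT10, 5 were called higher and 0 lower, beside 0.363% and 0.218% of all genes. The median of the 21 steps was 0.30 on the log2 scale, with 18 above 0, beside a median of 0.00 over all genes. Egr1 rose by 3.95 ± 0.14 at CT14 over CT10 (log2, SE, edgeR adjusted p = 1.2e-10), Nr4a1 by 2.51 ± 0.13 (adjusted p = 2.4e-08) and Nr4a3, a close relative of Nr4a1, by 2.06 ± 0.32 (adjusted p = 0.0072). Sik1, a kinase known to hold back CREB coactivators, rose by 0.78 ± 0.11 (adjusted p = 0.004), and Ier3, an early response gene, by 0.52 ± 0.09 (adjusted p = 0.0181). Per1, a clock gene that is also light-induced, passed the test between times (adjusted p = 0.0021) with its highest level at CT14, 87.0 CPM in cKO and 91.6 CPM in WT. Without the 2 WT libraries of CT18 and CT22, 8 passed between times and 7 at CT14 over CT10. None of the 21 was called between genotypes in edgeR, limma or DESeq2, the last without an adjusted p for 1 of them. An unadjusted p below 0.05 was seen for 3, or 14.3%, beside 5.89% of all genes. Among these was Egr1, with a cKO minus WT difference of -0.36 ± 0.08 (log2, SE, adjusted p = 0.213), which passed without the 2 WT libraries (-0.45, adjusted p = 0.0495).

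**Figure D5:**
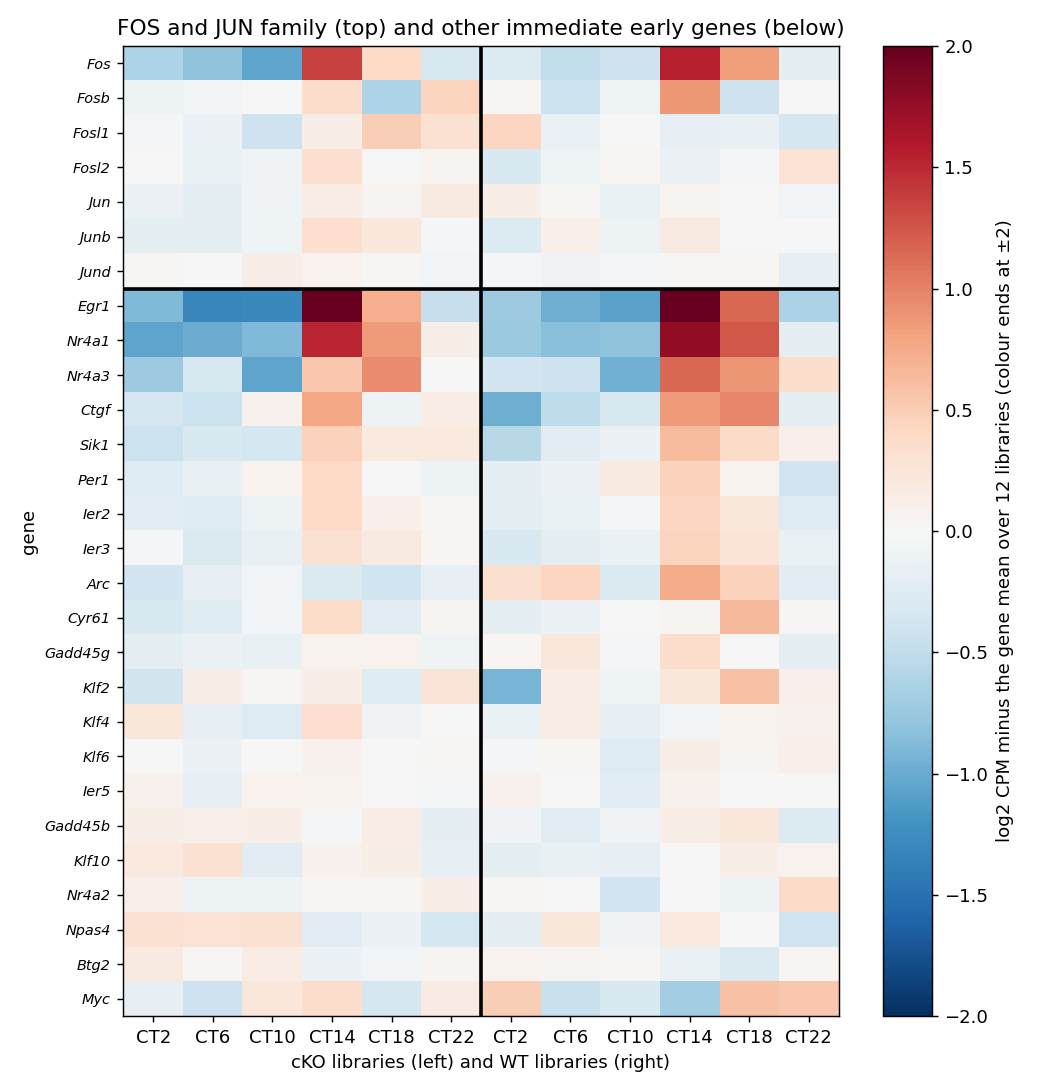
Log2 CPM of each library minus the mean of its gene over 12 libraries (colour, ends at ±2), for the 7 FOS and JUN family genes above the line and 21 other immediate early genes below it. Columns are the 6 cKO libraries on the left and the 6 WT libraries on the right, each by circadian time; the CT14 columns are the deepest red for Fos, Egr1 and Nr4a1.

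Genes that are known to act on Fos and Jun were examined next. Of 28 tested genes of the MAP kinase cascade, which runs from growth factor receptors to ERK, JNK and p38, 0 passed the test between times in edgeR, limma or DESeq2 and 4 had an unadjusted p below 0.05, or 14.3%, beside 13.6% of all genes. Of 18 transcription factors and coactivators upstream of Fos and Jun, such as SRF, the ELK factors and CREB, 0 passed in edgeR and limma and 1 in DESeq2, and 4 had an unadjusted p below 0.05. A common 24 h rhythm was called for 0 of the 28 cascade genes in edgeR and DESeq2 and 1 in limma. The rhythm had an unadjusted p below 0.05 in 7 of them, or 25%, beside 18.7% of all genes. It was called for 3 of the 18 upstream factors, the CREB coactivator Crtc1 (amplitude 0.15 log2, adjusted p = 0.0258), Mef2d (0.15, adjusted p = 0.0438) and Stat3 (0.12, adjusted p = 0.0486), named here after their values were seen, in 3 cases also in limma and in 2 in DESeq2, beside 3.46% of all genes. Without the 2 WT libraries of CT18 and CT22, 0 of the 18 were called. At CT14 over CT10 edgeR and limma called none of either list. An unadjusted p below 0.05 was seen for 1 cascade gene (3.57%) and 4 upstream factors (22.2%), beside 10.6% of all genes. DESeq2 called none either and gave no adjusted p for 7 and 4 of them. The medians of that step were 0.02 and -0.01 on the log2 scale.

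Among 18 feedback regulators, which switch the cascade or its transcripts off, 1 passed the test between times, beside 1.93% of all genes. In edgeR 2 were called higher at CT14 than at CT10, beside 0.363% of all genes. At that step limma called 1 of the 2 and DESeq2 none, with no adjusted p for 6 of the 18. Spry2, an inhibitor of growth factor signalling, passed both (step of 0.40 ± 0.09 log2, SE, edgeR adjusted p = 0.046, and 0.0586 in limma). It had 56.8 CPM in cKO and 56.7 CPM in WT at CT14, against 43.0 and 42.9 CPM at CT10. The other was Dusp5, a nuclear phosphatase of ERK, named here after its value was seen (0.47 ± 0.09, edgeR adjusted p = 0.0256, and 0.0317 in limma), with 35.7 CPM in cKO and 30.9 CPM in WT at CT14, against 24.9 and 23.2 CPM at CT10.

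Partners and targets of FOS and JUN proteins were examined next. Between times 1 of 12 partners and 3 of 22 targets passed in edgeR, beside 1.93% of all genes. An unadjusted p below 0.05 was seen for 4 partners (33.3%) and 7 targets (31.8%), beside 13.6% of all genes. Of 12 other basic leucine zipper factors that can pair with FOS or JUN proteins, Mafg, a small MAF factor, was the only 1 to pass between times (adjusted p = 0.0045, and 0.0298 without the 2 WT libraries of CT18 and CT22). Its highest library was that of CT18 in both genotypes, 128 CPM in cKO and 127 CPM in WT. Of 22 textbook AP-1 target genes, a list that includes Fosl1 itself, 3 passed between times, beside 1.93% of all genes. At CT14 over CT10 edgeR and limma called 0, and 4, or 18.2%, had an unadjusted p below 0.05, beside 10.6% of all genes. DESeq2 called 0 but gave no adjusted p for 14 of the 22, and without the 2 WT libraries of CT18 and CT22 edgeR called 1. Among those past the test between times were the secreted phosphoprotein Spp1 (edgeR adjusted p = 0.0076) and the metallothionein Mt2 (adjusted p = 0.0429). Both calls were lost without the 2 WT libraries (adjusted p = 0.0649 for Spp1 and 0.149 for Mt2). With the low-count filter rerun on the libraries left, the list again held 3 calls between times. Among these was Sprr1a, named here after its value was seen (edgeR adjusted p = 0.0092, and 0.386 with all libraries). No gene of the partner, upstream, cascade, feedback or target lists was called between genotypes in edgeR, limma or DESeq2, the last without an adjusted p for 1 partner and 2 targets. Unadjusted p-values below 0.05 numbered 0 of 12, 1 of 18, 1 of 28, 2 of 18 and 4 of 22 in these lists, beside 5.89% of all genes.

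Among 10 corticosteroid receptors and glucocorticoid-induced genes, Nr3c1 alone was called between genotypes, beside 0.139% of all genes. Between times 2 of the 10 passed in edgeR and limma and 3 in DESeq2, beside 1.93% of all genes in edgeR. An unadjusted p below 0.05 between times was seen for 7, or 70%, beside 13.6% of all genes. At CT14 over CT10 edgeR called 0. All 10 steps were above 0, and 7 had an unadjusted p below 0.05, or 70%, beside 10.6% of all genes. Tsc22d3, which encodes the glucocorticoid-induced leucine zipper protein GILZ, known to bind FOS and JUN, passed between times (adjusted p = 0.0056) together with Per1. It was highest at CT14 like Fos, with 59.3 CPM in cKO and 64.4 CPM in WT. Its genotype difference was -0.11 ± 0.05 on the log2 scale (SE, adjusted p = 0.837) and did not pass.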

How the data were processed

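Counts per gene and library were deposited by the authors as a table of raw whole-number counts, with no normalization, per the file headers. For aligner, counter, genome build and use of strand: not given in the sources used here. Genotype and time came from the sample titles. Of 32544 entries, 27 whose names had become dates (median 0.158% of a library's counts) were left out. Genes were filtered with filterByExpr by genotype (minimum count 10, minimum total 15), which left 15134, and scaled by TMM. CPM values use TMM library sizes. Tests were edgeR 4.0.16 quasi-likelihood tests (R 4.3.3), with Benjamini-Hochberg adjustment over all 15134 genes and a threshold of 0.05. The code was also run on simulated counts with known changes, none in the scarcest genes, and the same spread set for every gene. That run does not measure the error of the tests on these pooled libraries or on scarce genes. Models held time and genotype as factors, or 24 h cosine and sine terms. For single differences, SE is the estimate over the square root of its F. For cosine amplitudes, SE combines the separate SEs of the cosine and sine terms, without their covariance. Alternatives used DESeq2 1.42.0, limma 3.58.1 trend (prior count 2), DESeq2 size factors, no filter, other time terms, and left out each time or library. The libraries share no replicate numbers: time served as the block.

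The members and gene lists were chosen with earlier results of these data known. Named genes were the 7 members, the 5 genes nearest to Fos, Fosb and Junb by Pearson's r, and list genes past the test between times (up to 6 per list) or between genotypes; 1 such list gene is not reported here. P-values measure the spread between libraries of pooled RNA. Total counts lay within a narrow range, so depth hardly differed between libraries.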

Additional observations from a re-analysis of the deposited data

Results flagged for a closer look

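There were 14 sets of 6 libraries (7 genes in 2 genotypes). In 3 sets the gap of a library to its nearest neighbour took up more of the range than Dixon's critical value for 6 values allows. Chance alone gives this in about 1 set in 20 when the 6 values come from the same normal distribution. Libraries of 6 circadian times need not do so, and the 3 sets are given as a description. Fosl2 in cKO eyes was one, with 56.6 CPM at CT14 (gap ratio 0.645). Fosb in WT eyes stood at 4.90 CPM at CT14, where it is the highest WT library by a gap ratio of 0.731. Fosl1 in WT eyes stood at 6.80 CPM at CT2 (gap ratio 0.642). Each of these libraries is the only 1 of its genotype and time, so a departure of the library and a change at that time cannot be told apart.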

How the results depend on the processing

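Fos passed the test between times, the common 24 h rhythm and the step of CT14 over CT10 in all alternatives that gave an adjusted p, with that step between 2.02 and 2.40 on the log2 scale. DESeq2 gave none for Fos at CT14 over CT10 and CT18 over CT14. Among members, 2 differed between times without the filter on low counts (Fos and Junb), 0 passed CT18 over CT14 with limma-trend, and 2 had a rhythm in cKO with that genotype fitted alone (Fos and Junb), against 103 genes in all. Leaving out a time or a library gave 1 to 2 members differing between times, 1 to 2 with a common rhythm, 0 to 1 with a rhythm in WT and 0 to 1 at CT22 over CT18. Without both WT libraries of CT18 and CT22, chosen after seeing the data, 0 members passed CT22 over CT18 and 1 had a rhythm in WT. The genotype differences of the other members, never called, changed sign as follows: Jun to 1.1e-05 without the filter and 0.0018 without a time term; Fosb to 0.0072 with limma-trend and 0.0032 with DESeq2; Fosl1 to -0.15 and Junb to -0.0034 without both WT libraries. Leaving out a time or a library gave ranges from -0.12 to 0.14 for Fosb, -0.016 to 0.128 for Fosl2, -0.048 to 0.048 for Jun and -0.0029 to 0.10 for Junb. The cause of these shifts was not tested. Over all genes, counts ran from 99 to 553 between times, 8 to 126 at CT14 over CT10, 2 to 26 at CT18 over CT14, 8 to 51 at CT22 over CT18, 11 to 176 at CT2 over CT22, 217 to 535 for the common rhythm, 3 to 103 for cKO, 13 to 109 for WT and 3 to 51 between genotypes, against 292, 88, 3, 14, 67, 523, 23, 55 and 21. Departures of the genotype difference at CT14 ran from 1 to 91 genes, against 14. Fosb and Fosl1 had the lowest counts, 17 to 75 per library. Time was the block of the genotype test; without it the Fos difference was -0.30 (adjusted p = 0.999).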
